A study of Mus musculus with 8 samples.

Results

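The genes described here are 9 markers of thalamic neurons, Tcf7l2, Lef1, Zic1, Prkcd, Slc17a6, Tnnt1, Ramp3, Ntng1 and Plekhg1, chosen by name and read in hippocampal RNA. All 9 were present among the 37310 genes of the count table, and all 9 were among the 17913 genes tested. The hippocampus was taken from 4 mice heterozygous for a knockout of Nr2f1, labelled Nr2f1 het, and from 4 wild-type (WT) mice. All 8 animals were B6.129 F1 hybrids of 3 months, labelled male, and each gave 1 library. The labels do not say how the Nr2f1 allele was made.

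The thalamus relays sensory and motor signals to the cortex, and most of its excitatory neurons use the vesicular glutamate transporter VGLUT2, encoded by Slc17a6, where hippocampal pyramidal and granule cells mainly use VGLUT1, encoded by Slc17a7. The transcription factor TCF7L2 is a hallmark of postmitotic thalamic and habenular neurons, and LEF1 belongs to the same family of nuclear effectors of Wnt signalling. The thalamus lies directly beneath the hippocampus. None of the 9 genes is made by thalamic neurons alone: Tcf7l2 is also found in oligodendrocyte lineage cells, Lef1 in brain endothelium, Zic1 in meninges and septum, and Prkcd in the central amygdala.

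Nr2f1, the targeted gene, was read at 32.4, 31.0, 33.5 and 28.5 CPM in heterozygote libraries 1 to 4, against 53.4, 49.5, 54.1 and 51.6 CPM in WT libraries 1 to 4 (edgeR adjusted p = 7.32e-05). CPM, the usual unit of sequencing depth-scaled counts, was taken over the tested genes after normalisation of library sizes by TMM. Gene counts per library ran from 58717305 to 88831603 in heterozygotes and from 76154175 to 90043971 in WT. Although the animals were labelled male, Xist lay between 463.2 and 601.4 CPM and the 14 Y-linked genes had 3 counts in all 8 libraries together. This is a female pattern and goes against the label. Spike-in composition differed between odd-numbered and even-numbered libraries, in both genotypes, so values within each set are given beside the main results. The spike-in share of counts was 0.0431% to 0.0491% in odd-numbered and 0.07125% to 0.0787% in even-numbered libraries. Scaling by spike-ins therefore carries this split into the values. Markers of the hippocampus itself, 10 genes such as Prox1 and Wfs1, summed to between 1285 and 1516 CPM in heterozygotes and between 1433 and 1566 CPM in WT, with the lowest sum in heterozygote library 3.

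Of the 9 thalamic markers, 1 passed the test. Prkcd was higher in heterozygotes by 1.38-fold. Over all tested genes 2.99% passed, and 2.62% passed as higher in heterozygotes. Tcf7l2 and Zic1 were read at higher levels in every heterozygote library than in any WT library and did not pass. At an unadjusted edgeR p under 0.05 were 5 of the 9, beside 17.2% of all tested genes. In 3 of the 9 every heterozygote library lay above every WT library, as in 6.99% of all tested genes. In another 5 members the groups overlapped and the log2 fold change was positive, from 0.045 for Ntng1 to 0.44 for Ramp3. That of Slc17a6 was negative. The median log2 fold change of the 9 was 0.31, beside -0.0056 over all tested genes.

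**Figure D1:**
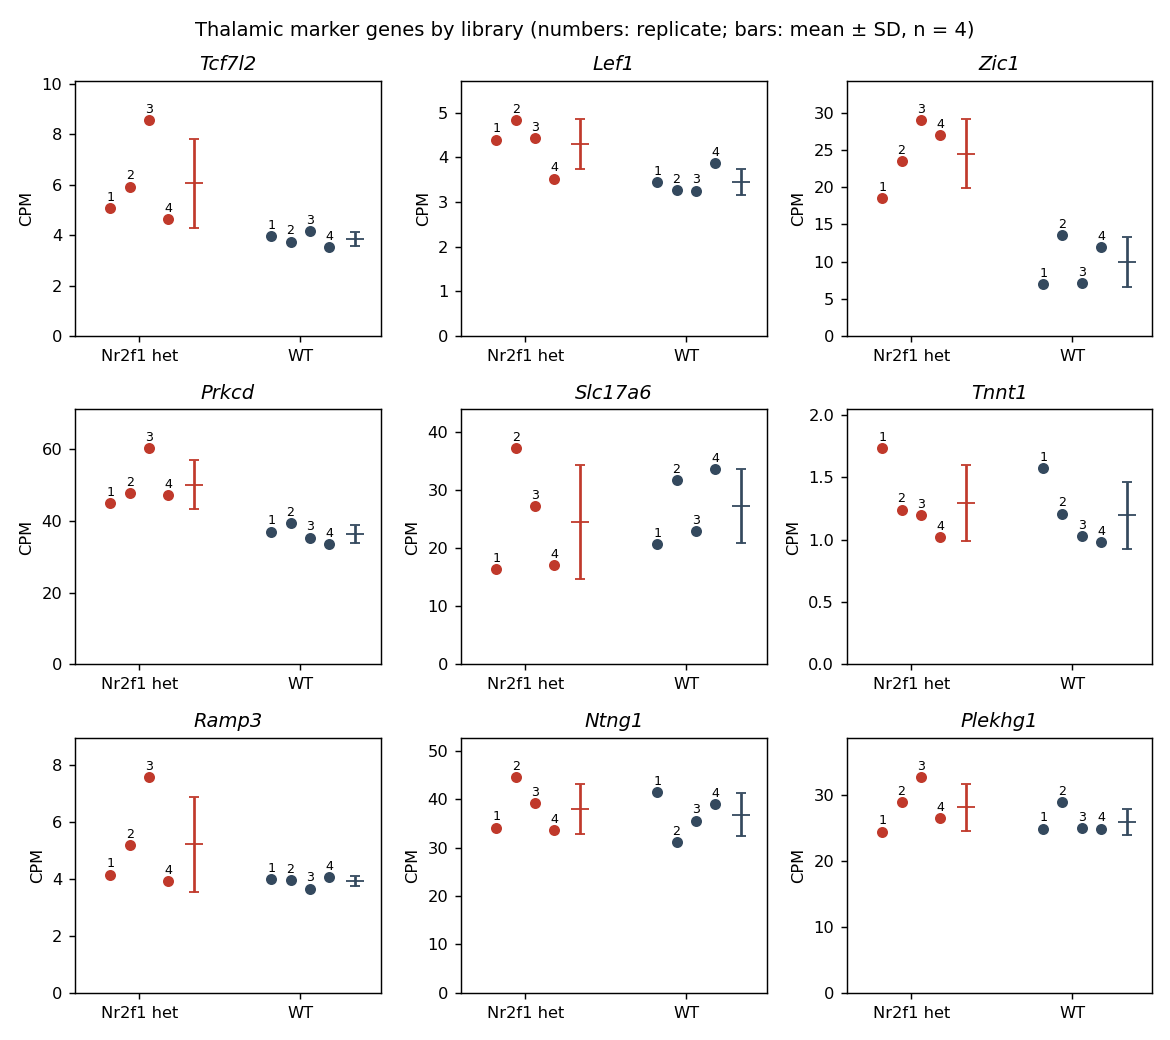
Normalised level (CPM, linear axis from 0) of each of the 9 markers in the 4 heterozygote (left) and 4 WT (right) libraries, with replicate numbers beside the points and the mean ± SD of each genotype. Tcf7l2, Zic1 and Prkcd separate the genotypes, heterozygote library 3 is the highest library for Tcf7l2, Zic1, Prkcd, Ramp3 and Plekhg1, and Slc17a6 overlaps fully.

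The promoters of the 3 members whose groups did not overlap are shown because these are the genes the comparison turns on. They are the 250 bases before a RefSeq start, from a table on GRCm38.p6, whereas the counts were made on an older build. Prkcd and Tcf7l2 have 2 listed promoters each, and the one of Prkcd with a motif match and the first of Tcf7l2 are printed. Capitals mark any match to CTTTGA, the core recognised by TCF and LEF factors, or AGGTCA, the half-site bound by NR2F1 and related receptors, on either strand.
Prkcd: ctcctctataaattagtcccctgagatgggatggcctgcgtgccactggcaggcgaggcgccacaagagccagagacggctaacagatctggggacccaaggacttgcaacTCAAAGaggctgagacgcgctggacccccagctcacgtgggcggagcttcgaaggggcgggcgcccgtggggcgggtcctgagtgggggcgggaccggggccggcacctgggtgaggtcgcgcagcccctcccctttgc
Zic1: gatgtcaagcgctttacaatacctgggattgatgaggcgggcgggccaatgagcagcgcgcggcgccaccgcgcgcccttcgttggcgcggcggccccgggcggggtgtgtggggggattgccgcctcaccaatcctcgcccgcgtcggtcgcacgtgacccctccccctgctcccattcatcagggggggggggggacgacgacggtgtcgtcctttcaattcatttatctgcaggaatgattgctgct
Tcf7l2: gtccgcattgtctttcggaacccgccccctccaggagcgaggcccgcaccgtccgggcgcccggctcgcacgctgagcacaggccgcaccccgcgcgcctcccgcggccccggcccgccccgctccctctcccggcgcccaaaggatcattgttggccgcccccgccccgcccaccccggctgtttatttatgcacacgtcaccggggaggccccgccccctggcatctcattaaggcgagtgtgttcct

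The Prkcd promoter lies at chr14:30626209-30626458 on the minus strand, that of Zic1 at chr9:91365769-91366018 on the minus strand and that of Tcf7l2 at chr19:55741560-55741809 on the plus strand. CTTTGA occurred once among these 3, in Prkcd, on the opposite strand and beginning 139 bases before the start. Across the 15 promoters listed for the 9 members, 2 held CTTTGA, 1 of Prkcd and 1 of Lef1, beside 13.8% of 32851 promoters of the same length. AGGTCA was in 0 of the 15, beside 14.0% of all promoters. The motifs do not overlap each other in these windows, and a match is a run of letters only.

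Among the transcription factors, Zic1, a zinc finger gene, had the largest difference of the 9 members. It was read at 18.5, 23.5, 29.1 and 27.1 CPM in heterozygote libraries 1 to 4, against 7.01, 13.6, 7.16 and 11.99 CPM in WT libraries 1 to 4. The heterozygote libraries all lay above the WT ones, and WT libraries 1 and 3 were the lowest of the 8. The log2 fold change was 1.3 ± 0.255 (SE), at the edge of the threshold (edgeR adjusted p = 0.0501). Over the 21 alternative settings the adjusted p ran from 0.000120, with spike-in scaling, to 0.740. Zic1 passed within the odd-numbered libraries, at 1.77 (edgeR adjusted p = 0.0460), and so did it among the even-numbered libraries, at 0.99 (edgeR adjusted p = 0.0102). These fits hold only 2 libraries of each genotype, and 557 of 18006 and 78 of 18181 genes passed in them, in that order. Of 8 fits that each left out 1 library, Zic1 passed in 1, without WT library 2 (1.49, edgeR adjusted p = 0.0421). It did not pass with a covariate for the run of animal numbers or without the low-count filter (edgeR adjusted p = 0.119 and 0.0848). Without WT libraries 1 and 3 together it was 0.95 (edgeR adjusted p = 0.0978). That fit sets even-numbered WT libraries alone against heterozygotes of both sets.

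The ZIC genes Zic2, Zic4 and Zic5 passed the test, all 3 as higher in heterozygotes. Zic4, which neighbours Zic1 and shares 60 exon bases with it on the opposite strand in GENCODE vM21, was read at 5.15, 6.51, 7.002 and 7.29 CPM in heterozygotes, against 1.79, 3.79, 2.03 and 3.26 CPM in WT, a 2.38-fold difference (edgeR adjusted p = 0.0149). Zic2 was 1.83-fold higher (edgeR adjusted p = 0.00899) and Zic5 1.52-fold (edgeR adjusted p = 0.0135). In each of these 3 genes the heterozygote libraries lay above all WT libraries. Whether counting used strand was not stated, so reads in the stretch shared by Zic1 and Zic4 cannot be safely assigned to one of them.

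Tcf7l2 was read at 5.08, 5.92, 8.56 and 4.63 CPM in heterozygote libraries 1 to 4, against 3.97, 3.74, 4.16 and 3.54 CPM in WT libraries 1 to 4. Heterozygote library 3 was the highest of the 8, and the other 3 heterozygotes also lay above every WT library. The log2 fold change was 0.67 ± 0.184 (SE) and did not pass (edgeR adjusted p = 0.0833; 0.00349 to 0.723 over the alternatives). Without heterozygote library 3 it was 0.44 (edgeR adjusted p = 0.0771), without heterozygote library 4 it passed at 0.79 (edgeR adjusted p = 0.0456), and without WT libraries 1 and 3 together it was 0.75 (edgeR adjusted p = 0.361). Within odd-numbered libraries it was 0.79 and within even-numbered ones 0.53 (edgeR adjusted p = 0.193 and 0.296 in that order).

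Lef1, the relative of Tcf7l2, was read at 4.40, 4.84, 4.42 and 3.53 CPM in heterozygotes, against 3.44, 3.26, 3.26 and 3.87 CPM in WT. The groups overlapped through heterozygote library 4 and WT library 4. The log2 fold change of 0.31 ± 0.113 (SE) did not pass (edgeR adjusted p = 0.170), and in GENCODE vM21 13.7% of the Lef1 exon length is shared with an antisense transcript. Of 42 tested genes of the canonical Wnt pathway, 2 passed, both higher in heterozygotes, and 40 did not, with a median log2 fold change of 0.054. At an unadjusted edgeR p under 0.05 were 12 of the 42, beside 17.2% of all tested genes. In 5 every heterozygote library lay above every WT library and in 2 below, beside 1252 and 643 of 17913 tested genes. DESeq2 called 4 of 43 as higher. The receptor gene Fzd7 was 1.47-fold higher (edgeR adjusted p = 0.00393), at 17.9 to 19.1 CPM in heterozygotes and 10.6 to 14.0 CPM in WT. The co-receptor gene Lrp5 was 1.26-fold higher (edgeR adjusted p = 0.0231). Axin2, a widely used transcriptional target of the pathway, was at 20.7 to 24.7 CPM in heterozygotes and 21.2 to 21.7 CPM in WT (edgeR adjusted p = 0.398). It was named after its values were seen, and its level alone does not measure the output of the pathway.

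Among the signalling and synaptic members, Prkcd, which encodes protein kinase C delta, was the gene that passed. It was read at 45.0, 47.8, 60.2 and 47.2 CPM in heterozygote libraries 1 to 4, against 37.0, 39.3, 35.3 and 33.5 CPM in WT libraries 1 to 4. The heterozygotes all lay above the WT libraries, and library 3 was the highest. The mean was 50.0 ± 6.87 CPM in heterozygotes and 36.3 ± 2.47 CPM in WT (SD, n = 4 each), with a log2 fold change of 0.47 ± 0.0907 (SE; edgeR adjusted p = 0.0292). Without heterozygote library 3 Prkcd still passed, at 0.36 (edgeR adjusted p = 0.0132). The call was lost without heterozygote library 2 or 4 and without WT library 1 or 3 (edgeR adjusted p = 0.0507, 0.0510, 0.0819 and 0.0909 in that order), and within odd-numbered or even-numbered libraries alone, where the log2 fold change was 0.56 and 0.38 (edgeR adjusted p = 0.148 and 0.115). Without WT libraries 1 and 3 together it was 0.46 (edgeR adjusted p = 0.254). Over all alternatives the adjusted p ran from 5.81e-06 with DESeq2 to 1 with spike-in scaling, which carries the split between odd-numbered and even-numbered libraries.

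Slc17a6, the gene of VGLUT2, did not follow Tcf7l2 or Prkcd. It was read at 16.4, 37.2, 27.3 and 17.1 CPM in heterozygotes, against 20.7, 31.8, 22.9 and 33.7 CPM in WT. The groups overlapped fully: heterozygote libraries 1 and 4 were the lowest of the 8, and heterozygote library 2 the highest. The log2 fold change was -0.15 ± 0.320 (SE; edgeR adjusted p = 0.868). It depended on single libraries, at -0.42 without heterozygote library 2 and -0.0051 without heterozygote library 1 (edgeR adjusted p = 0.546 and 0.996). Its CPM was 1.07% to 2.54% of that of Slc17a7 in heterozygotes and 1.27% to 2.22% in WT, a ratio of reads not scaled for length. Slc17a7 itself was at 1493 ± 58.4 CPM in heterozygotes and 1605 ± 67.7 CPM in WT (SD, n = 4 each; edgeR adjusted p = 0.195).

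Ramp3, which encodes an accessory subunit of calcitonin-family receptors, was read at 4.16, 5.19, 7.60 and 3.94 CPM in heterozygotes, against 3.998, 3.98, 3.67 and 4.06 CPM in WT. Heterozygote library 3 was the highest of the 8 and heterozygote library 4 lay within the WT range. The log2 fold change was 0.44 ± 0.195 (SE; edgeR adjusted p = 0.290), and 0.18 without heterozygote library 3 (edgeR adjusted p = 0.534). Calcr, the calcitonin receptor gene whose product pairs with RAMP3, had too few counts to be tested. It had 4, 2, 125 and 4 counts in heterozygote libraries 1 to 4 and 0, 2, 5 and 7 counts in WT libraries 1 to 4, so nearly all of its reads came from heterozygote library 3.

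Ntng1, encoding the adhesion protein netrin-G1 of thalamocortical axons, was read at 34.1, 44.6, 39.3 and 33.6 CPM in heterozygotes, against 41.5, 31.2, 35.6 and 39.0 CPM in WT. The groups overlapped fully (log2 fold change 0.045 ± 0.114, SE; edgeR adjusted p = 0.889). Of the 4 tested genes for its relative and the netrin-G ligand family, 0 passed in edgeR, 1 had an unadjusted p under 0.05, and DESeq2 called 1, as lower. That gene was Lrrc4c, whose product binds netrin-G1, at 79.3 ± 4.36 CPM in heterozygotes and 87.9 ± 2.54 CPM in WT (SD, n = 4 each; edgeR adjusted p = 0.0793).

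Plekhg1, a gene for a putative guanine nucleotide exchange factor, was read at 24.5, 29.0, 32.8 and 26.5 CPM in heterozygotes, against 25.0, 29.0, 25.0 and 25.0 CPM in WT. The groups overlapped (log2 fold change 0.12 ± 0.0868, SE; edgeR adjusted p = 0.517), and leaving out heterozygote library 3 brought it to 0.041 (edgeR adjusted p = 0.851). Tnnt1, encoding slow skeletal troponin T and used as a thalamic label in brain, was the least abundant member by reads, at 1.73, 1.24, 1.20 and 1.02 CPM in heterozygotes, against 1.57, 1.21, 1.03 and 0.98 CPM in WT, from 82 to 118 counts a library. Its log2 fold change was 0.095 ± 0.202 (SE; edgeR adjusted p = 0.862). Of the other troponin genes 3 were tested, and Tnni3 passed as higher, at 0.66 to 0.94 CPM in heterozygotes and 0.19 to 0.40 CPM in WT (edgeR adjusted p = 0.0136).

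**Figure D2:**
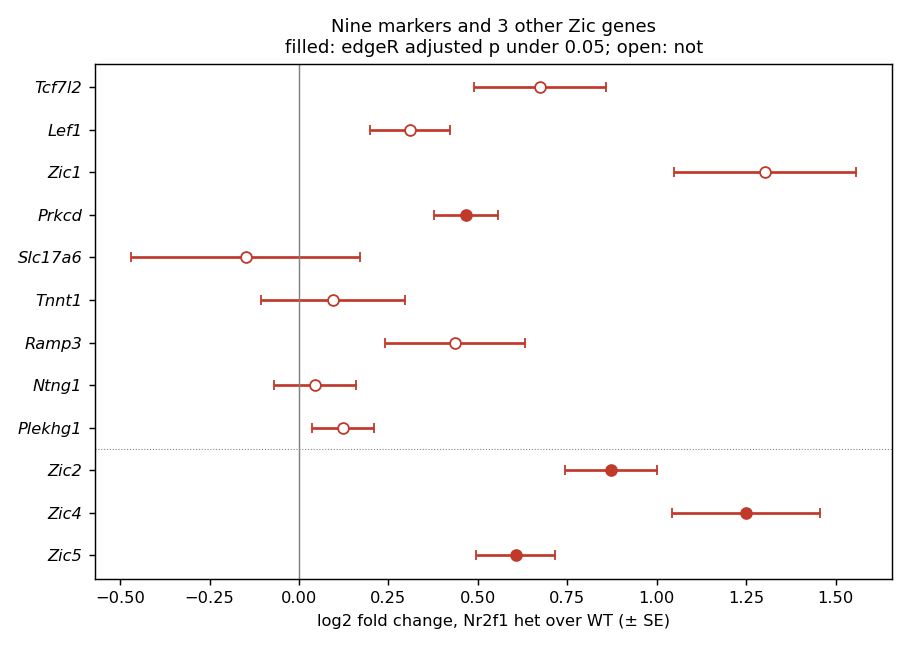
Log2 fold change of heterozygotes over WT with its standard error for the 9 markers (above the dotted line) and 3 other ZIC genes (below it), 4 libraries a genotype. Filled points passed an edgeR adjusted p of 0.05: Prkcd and the 3 ZIC genes below the line, with Zic1 at 1.3 open at an adjusted p of 0.0501.

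Levels were compared between genes per kilobase of exon, as CPM divided by the union exon length in GENCODE vM21. In heterozygotes the order was Prkcd at 9.03, Ntng1 at 4.60, Slc17a6 at 4.54, Zic1 at 4.31, Ramp3 at 3.78, Plekhg1 at 3.23, Tcf7l2 at 0.69, Tnnt1 at 0.59 and Lef1 at 0.49 CPM per kb. In WT it was Prkcd at 6.55, Slc17a6 at 5.05, Ntng1 at 4.47, Plekhg1 at 2.97, Ramp3 at 2.85, Zic1 at 1.74, Tnnt1 at 0.54, Tcf7l2 at 0.44 and Lef1 at 0.39 CPM per kb. Zic1 overlapped Slc17a6 and Ramp3 in heterozygotes, whereas in WT it lay below the range of Ramp3 and above that of Tnnt1. Neighbours whose libraries did not overlap were Prkcd and Ntng1, and Plekhg1 and Tcf7l2, in heterozygotes, and Ntng1 and Plekhg1, Ramp3 and Zic1, and Zic1 and Tnnt1 in WT. All other neighbours overlapped.

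Within a genotype, some members varied together and others did not. Heterozygote library 3 was the highest of the 8 for Tcf7l2, Zic1, Prkcd, Ramp3 and Plekhg1, was 1.64 times the mean of the other heterozygotes for Tcf7l2 and 1.72 times for Ramp3, and was 0.896 times that mean for Tnnt1. After subtraction of each genotype's mean log2 CPM, Pearson correlations over the 8 libraries were 0.923 between Tcf7l2 and Ramp3, 0.824 between Tcf7l2 and Prkcd, 0.373 between Tcf7l2 and Slc17a6 and 0.0603 between Tcf7l2 and Zic1. These are descriptions of 8 libraries, and the genes read in a library share its depth and tissue. For Tcf7l2, Prkcd and Ramp3, heterozygote library 3 lay farthest from its genotype's mean. For Slc17a6 this was heterozygote library 2, and for Zic1 WT library 2.

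By the same measure, the genes most like each of 4 members were sought among 13211 genes with a symbol and a mean of at least 1 CPM, and the values describe likeness only. For Tcf7l2 they were Ly6h (0.972), Bicdl1 (0.972), Epb41l4b (0.960), Sparcl1 (0.959) and Fndc9 (0.959). For Prkcd they were Rps14 (0.980), Nup205, Lrtm2, Vat1 and Mroh7 (0.957). For Zic1 they included Mafk (0.981), its neighbour Zic4 (0.979), Bmf and Ezr (0.969). For Slc17a6 they were Btbd11 (0.992), the transcription factor gene Pbx3 (0.991), Coq4, Prim2 and Rims4 (0.985). No member was among the 5 most like any of these 4.

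**Figure D3:**
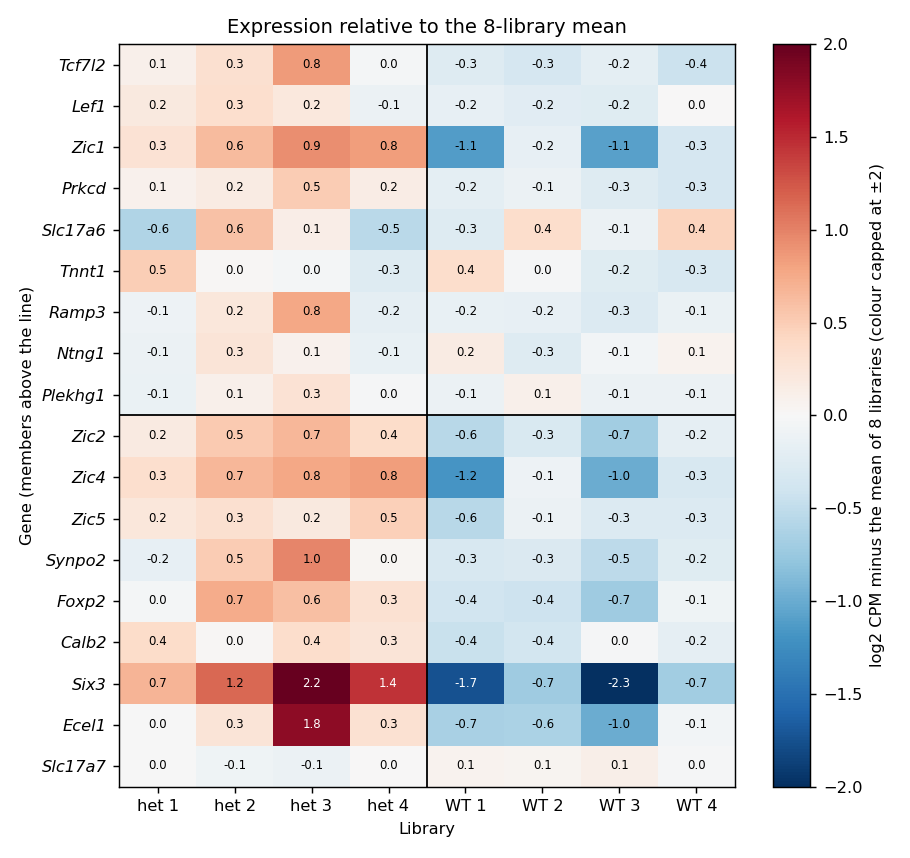
Log2 CPM minus the mean of the 8 libraries, by gene (rows) and library (columns, heterozygotes left of the vertical line), for the 9 markers above the horizontal line and 9 further genes below it, some of which were picked after their values were seen. Heterozygote library 3 has the deepest red for Tcf7l2, Ramp3, Synpo2, Six3 and Ecel1, and WT libraries 1 and 3 the deepest blue for Zic1, Zic4 and Six3.

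Other genes of the thalamus and its neighbours gave a similar mixture. Of 11 tested thalamic genes outside the 9, Foxp2 and Calb2 passed as higher and 9 did not pass, with a median log2 fold change of 0.081. Foxp2, a transcription factor gene, was 1.79-fold higher (edgeR adjusted p = 0.0288), and Calb2, encoding calretinin, 1.41-fold higher (edgeR adjusted p = 0.0449). Synpo2 was read at 4.93, 7.91, 10.9 and 5.70 CPM in heterozygotes, against 4.45, 4.55, 3.85 and 4.68 CPM in WT, with heterozygote library 3 again the highest (edgeR adjusted p = 0.140). Gbx2, which specifies thalamic neurons in development, had 1, 6, 10 and 2 counts in heterozygotes and 1, 2, 1 and 1 counts in WT and was not tested.

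The habenula borders the thalamus and also expresses Tcf7l2. Of 7 tested habenular genes 0 passed in edgeR and 0 of 8 in DESeq2, while 3 had an unadjusted edgeR p under 0.05. The median log2 fold change was -0.18, and the list summed to between 15.01 and 20.5 CPM in heterozygotes, against 16.4 to 20.6 CPM in WT. The genes of lowest p were Chrnb4, encoding a nicotinic receptor subunit, at 0.819 ± 0.309 CPM in heterozygotes and 0.394 ± 0.175 CPM in WT, and Gng8, encoding a G protein gamma subunit, at 0.422 ± 0.0883 CPM in heterozygotes and 0.238 ± 0.0776 CPM in WT (SD, n = 4 each; edgeR adjusted p = 0.127 and 0.189). The third, Gpr151, encoding an orphan receptor of habenular neurons, went the other way, at 0.724 ± 0.120 CPM in heterozygotes and 0.948 ± 0.0918 CPM in WT (SD, n = 4 each; edgeR adjusted p = 0.275), and 4 of the 7 had a log2 fold change below 0. Pou4f1, the defining habenular transcription factor gene, had 0 to 6 counts in heterozygotes and 2 to 12 counts in WT.

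Of 10 genes of the thalamic reticular nucleus and prethalamus, 3 passed, all as higher in heterozygotes. Six3 was read at 1.82, 2.55, 5.18 and 3.11 CPM in heterozygotes, against 0.32, 0.68, 0.21 and 0.69 CPM in WT (edgeR adjusted p = 0.0193). Isl1 had 16, 20, 56 and 48 counts in heterozygotes, against 1, 9, 1 and 1 counts in WT (edgeR adjusted p = 0.00773). Dlx2 was 1.37-fold higher (edgeR adjusted p = 0.0153). Six3, Isl1 and Dlx2 are all transcription factor genes of the striatum and its progenitors too, and Foxp2 is a striatal gene as well.

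Markers of other tissues moved with the genotype in the same libraries. The 12 choroid plexus genes summed to between 4109 and 4645 CPM in heterozygotes and to 84.5, 1446, 446.3 and 2117 CPM in WT libraries 1 to 4. Their median log2 fold change was 1.86, with 0 of 12 past the test in edgeR, 11 at an unadjusted p under 0.05, and 4 called as higher by DESeq2. Among WT libraries, both this sum and Zic1 were lower in 1 and 3 than in 2 and 4. Meningeal fibroblast genes summed to 346.8 to 415.7 CPM in heterozygotes and 94.9 to 256.5 CPM in WT, with 0 of 9 past the edgeR test, 5 at an unadjusted p under 0.05 and 3 called by DESeq2. Ependymal genes summed to 29.8 to 45.3 CPM in heterozygotes and 10.4 to 20.7 CPM in WT, with 4 of 6 past the test as higher. None of the defining markers of these lists was at 0. The choroid plexus score, the mean centred log2 CPM of its list, was 1.14 to 1.38 in heterozygotes and -3.41 to 0.326 in WT. It thus separated the genotypes, and a fit with both cannot tell them apart well. With the score as a covariate no member passed, and of all 17913 genes 1 did, so the loss of calls was not particular to the members. At an unadjusted edgeR p under 0.05 were then 3 of the 9, beside 6.55% of all tested genes. Zic1 was then at a log2 fold change of 0.72, Tcf7l2 at 0.81 and Prkcd at 0.51 (edgeR adjusted p = 0.740, 0.723 and 0.662). Their part in the differences was not tested.

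Striatal genes had a median log2 fold change of 0.78, with 1 of 10 past the edgeR test, Ppp1r1b at 1.60-fold (edgeR adjusted p = 0.0471). At an unadjusted edgeR p under 0.05 were 7 of the 10, beside 17.2% of all tested genes. DESeq2 called 6 as higher, beside 916 of 27021 genes given a p, including any left without an adjusted p. In 7 every heterozygote library lay above every WT library, beside 6.99% of all tested genes. The same held for 12 of 12 choroid plexus, 6 of 6 ependymal and 5 of 9 meningeal fibroblast genes. It also held for 5 of 10 thalamic reticular and prethalamic genes, 3 of the 11 other tested thalamic genes and 2 of 7 habenular genes. The striatal sum was 218.7, 238.0, 301.7 and 334.0 CPM in heterozygote libraries 1 to 4 and 202.5 to 215.9 CPM in WT. The highest heterozygote library for striatal genes was thus library 4, whereas for the thalamic markers, at 210.4 CPM, it was library 3. Of 10 hippocampal markers 2 passed as lower in heterozygotes, Wfs1 at 0.846 and Mpped1 at 0.877 of WT (edgeR adjusted p = 0.0362 and 0.0409). Markers of committed oligodendrocyte precursors, which express Tcf7l2, summed to 192.7 to 222.9 CPM in heterozygotes and 188.6 to 225.0 CPM in WT. Endothelial markers, beside Lef1, summed to 160.1 to 169.1 CPM in heterozygotes and 158.3 to 176.0 CPM in WT. Of these 4 precursor and 7 endothelial genes, and of 6 microglial and 6 skeletal muscle genes, 0 passed in edgeR or DESeq2, with 0, 1, 1 and 0 at an unadjusted edgeR p under 0.05. In bulk RNA, more cells of a type cannot be told apart from more RNA per cell, and the part of these tissues in the values of the 9 genes was not tested.

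**Figure D4:**
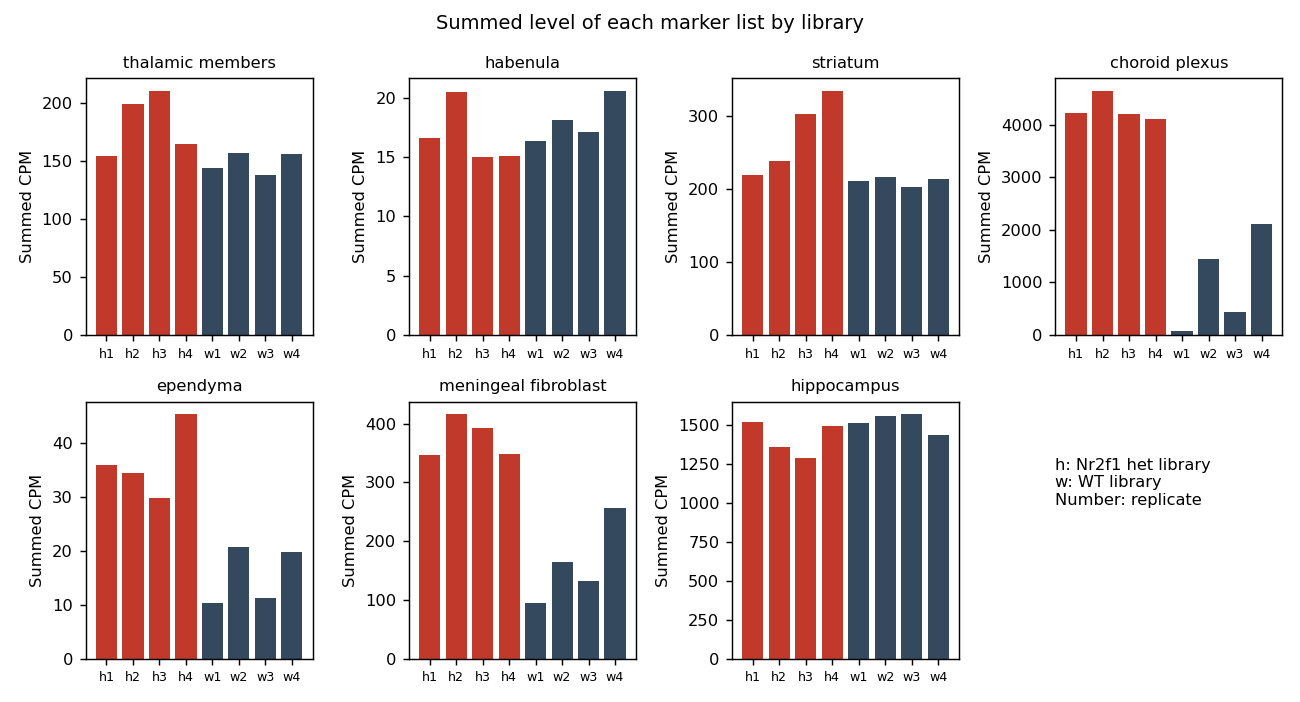
Summed CPM of each marker list (bars from 0, one panel a list, scales differ) in heterozygote libraries h1 to h4 and WT libraries w1 to w4. Choroid plexus, ependymal and meningeal sums are higher in every heterozygote library than in any WT library, the thalamic sum is highest in h2 and h3, and the habenular sum overlaps between genotypes.

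**Figure D5:**
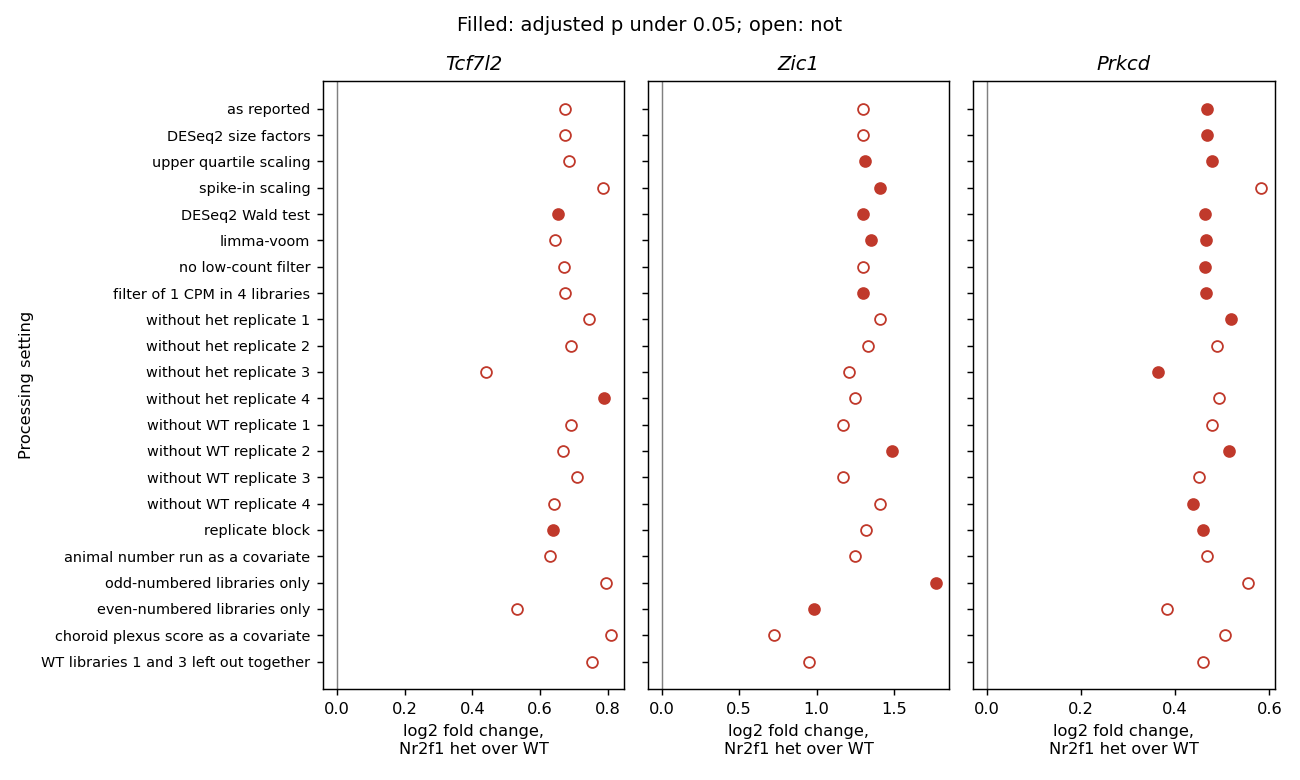
Log2 fold change of heterozygotes over WT (linear axes, scales differ) for Tcf7l2, Zic1 and Prkcd under the reported fit and 21 alternatives, filled where the adjusted p was under 0.05. All values are above 0; Prkcd is filled under 11 of the 21 alternatives, Zic1 under 8 and Tcf7l2 under 3.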

How the data were processed

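The values are unnormalised read counts for Ensembl genes and ERCC spike-ins, deposited by the authors for 8 hippocampal libraries made with a NuGEN Ovation kit from 10 ng of total RNA, per the labels' protocols. The submitters' processing notes name STAR 2.4.2a, HTSeq, FastQC and DESeq2 and the builds mm9 and NCBIM37. How each was run, and whether counting used strand, was not stated in the sources used here. The 92 spike-in rows stayed out of library sizes and tests. Symbols came from GENCODE vM21 (GRCm38) and matched 32620 identifiers, 17106 of them tested; that annotation also gave exon lengths and overlaps.

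Counts were filtered with filterByExpr (minimum count 10, total 15), scaled by TMM and compared with edgeR 4.0.16 (quasi-likelihood F test, robust) in R 4.3.3, with Benjamini-Hochberg adjustment over all 17913 genes and a threshold of 0.05. Standard errors were derived from the log2 fold change and its F statistic. Alternatives used DESeq2 1.42.0 and limma 3.58.1, other scalings and filters, libraries left out, odd-numbered or even-numbered libraries alone, and covariates. Leaving out WT libraries 1 and 3 together was added after the data were seen. It removes all odd-numbered WT libraries, so library set and genotype are partly confounded in that fit. The edgeR step was tested on simulated counts. The members, lists and rule for naming genes were chosen with earlier results of these data known: all 9 members, and from each list the genes past the threshold or otherwise those of lowest p. Synpo2, Ecel1, Axin2, Gbx2, Pou4f1, Gpr151 and Calcr were named after their values were seen. Replicate pairs of a genotype differed by more than sampling noise (chi-square per degree of freedom 7.42 to 25.0). A count of 3 was worth 0.0332 to 0.0510 CPM by library, covering counting error only. Some genes of the lists are not reported here.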

Additional observations from a re-analysis of the deposited data

Results flagged for a closer look

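In 124 groups of 4 libraries, 11 had a highest or lowest library that stood apart (Dixon's test at the 95% level). Its gap to the nearest other library took up most of the group's range. The groups came from 62 genes taken by the naming rule or given by their levels. Chance flags about 1 in 20 groups. Calcr, Ecel1 and Pou4f1, flagged below, were named after their values were seen, so the 11 cannot be set against that share. Among the thalamic markers this was Plekhg1, at 29.0 CPM in WT library 2 and 24.9 to 25.0 CPM in the other WT libraries. Calcr was at 1.38 CPM in heterozygote library 3 and at 0.0251 to 0.0680 CPM in the other heterozygotes. Ecel1 was at 15.35 CPM in heterozygote library 3 and 4.40 to 5.51 CPM in the others. Lrp5 was at 15.4 CPM in heterozygote library 3 and 13.1 to 13.4 CPM in the others. In heterozygote library 2, Chrnb4 was at 1.28 CPM against 0.612 to 0.708 CPM in the other heterozygotes, Kcnj13 at 10.2 CPM against 7.38 to 7.49 CPM, and Myl1 at 1.59 CPM against 0.608 to 0.765 CPM. Ntng2 was lowest in WT library 4, at 33.9 CPM against 36.6 to 36.8 CPM in the other WT libraries. Pou4f1 was at 0.102 CPM in heterozygote library 1 and 0 to 0.0125 CPM in the other heterozygotes, and at 0.138 CPM in WT library 2 and 0.0223 to 0.0400 CPM in the other WT libraries, at counts of 12 or fewer. Isl1 was at 0.104 CPM in WT library 2 and at 0.0111 to 0.0133 CPM in the other WT libraries.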

How the results depend on the processing

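Of 189 values of the 9 markers under 21 alternatives, 163 kept their direction and their side of the threshold, 10 lost a call (all Prkcd), 11 gained one (8 for Zic1 and 3 for Tcf7l2) and 5 changed sign. The sign changes concerned genes near 0: Slc17a6 at 0.032 and Ntng1 at -0.059 within odd-numbered libraries, and, leaving out each library in turn, Ntng1 from -0.043 to 0.11 and Tnnt1 from -0.036 to 0.24; the cause was not tested. The number of the 9 that passed was 2 with upper quartile scaling, limma-voom or a filter of 1 CPM in 4 libraries. Over all genes 564 of 17913, 628 of 17913 and 466 of 14275 then passed, in that order. With the DESeq2 Wald test 3 of the 9 passed, beside 1183 of 27021 genes. The 27021 are all genes given a DESeq2 p, including any that its filtering left without an adjusted p. The share passing among genes that could be called may thus be higher. The number of the 9 that passed was 0 with a covariate for the run of animal numbers, the choroid plexus score as a covariate, or WT libraries 1 and 3 left out together. Under these last settings 4, 3 and 3 of the 9 had an unadjusted edgeR p under 0.05, beside 15.2%, 6.55% and 10.6% of all tested genes. Leaving out each library in turn, 0 to 2 of the 9 passed. Over all genes, 535 changed (469 higher, 66 lower), and 171 to 767 without each library in turn, the lowest counts being without heterozygote library 1, 3 or 4 (321, 315 and 281) or WT library 1 or 3 (222 and 171). The count was 185 with spike-in scaling (184 higher, 1 lower), 1183 with DESeq2, 231 with the animal number run, 78 among even-numbered libraries, 170 without WT libraries 1 and 3, and 1 with the choroid plexus score. Same-numbered libraries did not deviate together (correlations from -0.093 to 0.027, and 0 of 4 heterozygote libraries correlated best with their own number); with the replicate number as a block 406 genes and 2 of the 9 markers passed. Depth limits Tnnt1 most among the members, with 82 to 118 counts a library.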

Other observations

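Relatives of the markers were read in the same libraries. Of the 8 other tested protein kinase C genes, 0 passed in edgeR, 2 had an unadjusted p under 0.05, and DESeq2 called 1 as higher. Prkcq was at 14.7 ± 0.821 CPM in heterozygotes and 10.98 ± 2.19 CPM in WT (SD, n = 4 each; edgeR adjusted p = 0.109). Prkcb went the other way, at 386.5 ± 34.5 CPM in heterozygotes and 432.4 ± 11.9 CPM in WT (SD, n = 4 each; edgeR adjusted p = 0.151), and 6 of the 8 had a log2 fold change below 0. Of the 5 other Plekhg genes, 0 passed in edgeR, 2 had an unadjusted p under 0.05, and DESeq2 called 2 as higher. Slc17a8, encoding the vesicular glutamate transporter VGLUT3, was at 7.82 ± 1.03 CPM in heterozygotes and 9.16 ± 0.500 CPM in WT (SD, n = 4 each; edgeR adjusted p = 0.178). Ecel1, a peptidase gene, was at 4.40, 5.29, 15.35 and 5.51 CPM in heterozygote libraries 1 to 4, against 2.81, 2.86, 2.23 and 4.28 CPM in WT libraries 1 to 4 (edgeR adjusted p = 0.244).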
